A study of Mus musculus with 2 samples.

Results

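The cells described here are 287 *Isl1*/*Ebf1* GABAergic cells of the telencephalic vesicle of wild-type mouse embryos at E12, sequenced as single cells. They were picked from 1 droplet library by the transcripts they held, counted as unique molecular identifiers (UMIs), where each UMI stands for 1 captured transcript molecule. Of 14283 barcodes, 11498 had at least 2500 UMIs and less than 6% of them from mitochondrial genes. In each of these, N was the sum of 6 neuronal genes (*Tubb3*, *Stmn2*, *Dcx*, *Elavl3*, *Gap43* and *Mapt*) and A the sum of 7 progenitor genes (*Sox2*, *Hes1*, *Hes5*, *Vim*, *Nes*, *Fabp7* and *Slc1a3*). N exceeded A in 2755 cells, here called N>A cells. The 287 cells were those N>A cells with at least 2 UMIs of *Gad1* and *Gad2*, none of *Tbr1*, *Lhx6* or *Nkx2-1*, and at least 2 of *Isl1* and *Ebf1* together. They made up 10.4% of N>A cells (exact Clopper-Pearson 95% interval 9.30 to 11.6%) and 2.50% of the 11498 cells (interval 2.22 to 2.80%). The share rests on depth, since with every cell thinned to 2500 UMIs before the rule 102 cells met it, 3.71% of N>A cells. The whole series held 20110 barcodes in 2 libraries.

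The vesicles came from 3 C57BL/6J wild-type embryos of 2 litters, labelled E12 and given in the study's methods as between E11.5 and E12, and were pooled, so that embryos cannot be told apart, the library is the only replicate and no significance test was possible. The other library was made with an older kit from septal explants of 8 *PGKCre;Rosa26YFP* embryos at E11.5 and 4 *Dbx1Cre;Rosa26tdTomato* embryos at E12.5, labelled as wild-type and C57BL/6J. In those embryos the *PGK* promoter drives Cre throughout the body and the *Dbx1* locus drives it in *Dbx1*-expressing progenitors and their progeny. The study as a whole addressed *Dbx1* and *Pcdh8* in the developing cortex, and the cells described here lie outside that question. The 2 libraries shared 1 barcode sequence, which belonged to none of the 287 cells. Median depth was 7741 UMIs in the 287 cells (2981 to 45006) and 7126.5 in the 2468 other N>A cells. A doublet caller marked 20 of the 287 cells (6.97%) and 217 of the other N>A cells (8.79%), and these were kept.

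In the embryonic subpallium, the ganglionic eminences produce GABAergic neurons under the control of *Dlx* homeobox genes. The lateral ganglionic eminence (LGE) gives rise to the projection neurons of the striatum and, from its dorsal part, to olfactory bulb and intercalated amygdala neurons, whereas the medial ganglionic eminence (MGE) gives rise to cortical and striatal interneurons, pallidal neurons and cholinergic neurons. *Isl1*, a LIM homeobox gene, and *Ebf1*, a helix-loop-helix gene, are known for their role in the striatal projection neurons that send axons to the substantia nigra and express *Tac1* and *Drd1*, while *Sp9* and *Six3* are known for their role in those that project to the globus pallidus and express *Penk* and *Drd2*. *Isl1* is also used by cholinergic neurons, and *Ebf1* by Cajal-Retzius cells and mesenchyme.

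The genes of the rule are given first, as a description of how the cells were chosen. Levels are given as CPM, the UMIs of a gene over all UMIs of the summed cells, scaled to 1e6, with exact Poisson 95% intervals that, like all intervals below, cover counting error only. *Gad2*, which encodes a GABA-synthesising enzyme, stood at 630 CPM in the 287 cells and 150 CPM in other N>A cells. *Isl1* (GRCm38 chromosome 13, 116298281 to 116309689, minus strand) stood at 539 against 73.3 CPM and *Ebf1* (chromosome 11, 44617317 to 45008091, plus strand) at 1023 against 243 CPM. The glutamatergic cells defined below held *Ebf1* at 406 CPM. The 2 factors were spread very differently over the cells. *Isl1* was found in 285 of the 287, with a median of 4 and a maximum of 24 UMIs. *Ebf1* was found in 95 (33.1%, interval 27.7 to 38.9%), and 59 cells with 10 or more UMIs held 96.6% of its 2797 UMIs, up to 188 in 1 cell. The cells were thus chosen mostly through *Isl1*, and 192 held *Isl1* alone, 93 both genes and 2 *Ebf1* alone. As a measure of free RNA, 342 blood cells with at least 20% globin UMIs (median depth 5428.5 UMIs) held *Ebf1* in 2.63% and *Isl1* in none. In all 342, N was under 10 and not above A, so that N>A cells rich in globin were not among them.

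*Foxp1*, which is expressed in striatal projection neurons and was given as a marker of these cells, did not set them apart. It stood at 202 CPM in the 287 cells (interval 186 to 220) and at 257 CPM in other N>A cells, with a UMI in 63.8% and 70.9% of cells. In the glutamatergic cells it stood at 287 CPM. Of 16 genes of mature striatal projection neurons 3 reached the limit of comparison used below, of which *Tac1* was at least 2-fold higher, *Cnr1* at least 2-fold lower and *Pde10a* between, at 77.9 against 54.0 CPM. The 16 genes summed to 235 against 148 CPM, and without *Tac1* the other 15 to 127 against 136 CPM. In the same list, *Drd1*, *Penk* and *Ppp1r1b* had no UMI in the 287 cells, where 3 counts would make 1.10 CPM, and *Drd2* had 8 UMIs. The cells are therefore named here by the genes of the rule and not as a striatal type.

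**Figure D1:**
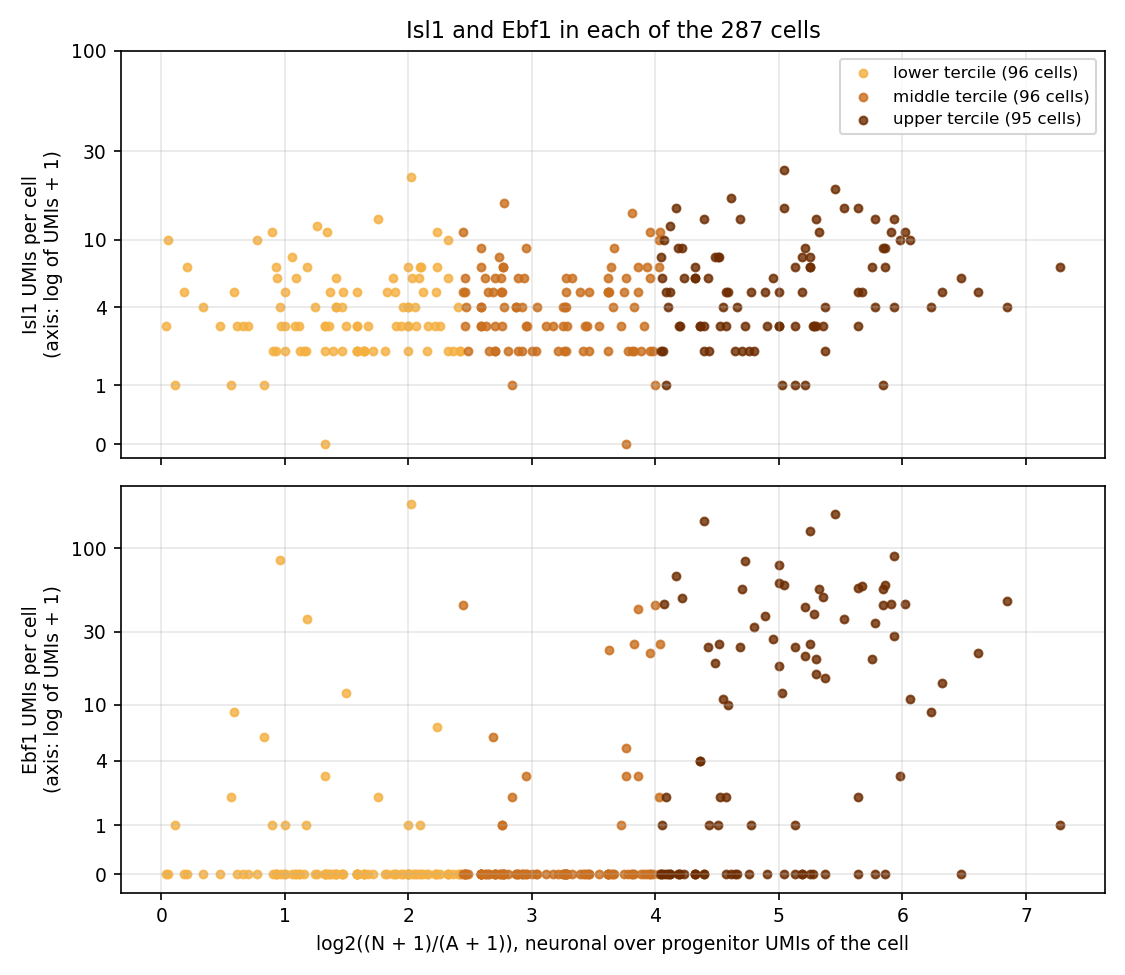
UMIs of *Isl1* (top) and *Ebf1* (bottom) in each of the 287 cells, on a logarithmic axis of UMIs + 1, against log2((N + 1)/(A + 1)), with colours for the terciles of that measure. *Isl1* lies between 1 and 24 UMIs in nearly every cell, while *Ebf1* is at 0 in 192 cells and reaches 10 or more mostly in the upper tercile.

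The 287 cells were compared with all 2468 other N>A cells of the library, in 7023 genes whose CPM averaged over both groups reached 20, without the 20 genes of the rule. In the 287 cells, 154 genes were at least 2-fold higher (2.19%) and 147 at least 2-fold lower (2.09%), with a median ratio of 1.02 over all genes compared. With the 102 cells found after thinning these counts were 321 and 374. Since the rule chose the cells within this contrast, these values are a description. A gene low in 1 group could pass the limit through its level in the other, and such genes were not counted apart. *Tac1*, which encodes the precursor of substance P, was at 109 CPM (interval 96.9 to 122) against 12.4 CPM, a ratio of 8.77 (exact conditional interval 7.42 to 10.4). *Chrm3*, a muscarinic acetylcholine receptor gene, was at 43.5 against 2.32 CPM and had the highest ratio among the genes compared, 18.8 (13.4 to 26.6). Like *Tac1*, it was below 20 CPM in other N>A cells and reached the limit of comparison through its level in the 287 cells. Both were carried by few cells. *Chrm3* was found in 8.71% of the 287 cells and 21.9% of its UMIs came from 1 cell, and *Tac1* was found in 13.2% of them against 6.44% of other N>A cells. Neither had a UMI in the blood cells.

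Other leading genes were found in far more of the cells. *Pnoc*, which encodes the precursor of nociceptin, was at 121 against 18.7 CPM and in 53.0% against 8.39% of cells. *Slc18a2*, the vesicular monoamine transporter gene, was at 92.1 against 13.9 CPM and in 49.1% against 8.63% of cells, with 3.22% in blood cells. Among guidance and adhesion genes, the semaphorin genes *Sema3a* (143 against 19.6 CPM, ratio 7.31) and *Sema6d* (242 against 34.5 CPM, ratio 7.03) and the cadherin gene *Cdh8* (200 against 29.9 CPM, ratio 6.69) stood among the first 15. The rest of the first 25 included the calmodulin-binding *Pcp4*, the potassium channel gene *Kcnd2*, the neurotrophin receptor gene *Ntrk3*, the adhesion genes *Dscam* and *Cntn1* and the homeobox gene *Dlx6*. These genes were long. Of the 25, 17 spanned more than 100 kb, as did 63.0% of the 154 higher genes, 42.9% of the 147 lower genes and 19.6% of all genes compared. Whether intronic reads were counted in the vesicle is not given in the sources used here, and the part of gene length in the ratios was not tested.

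**Figure D2:**
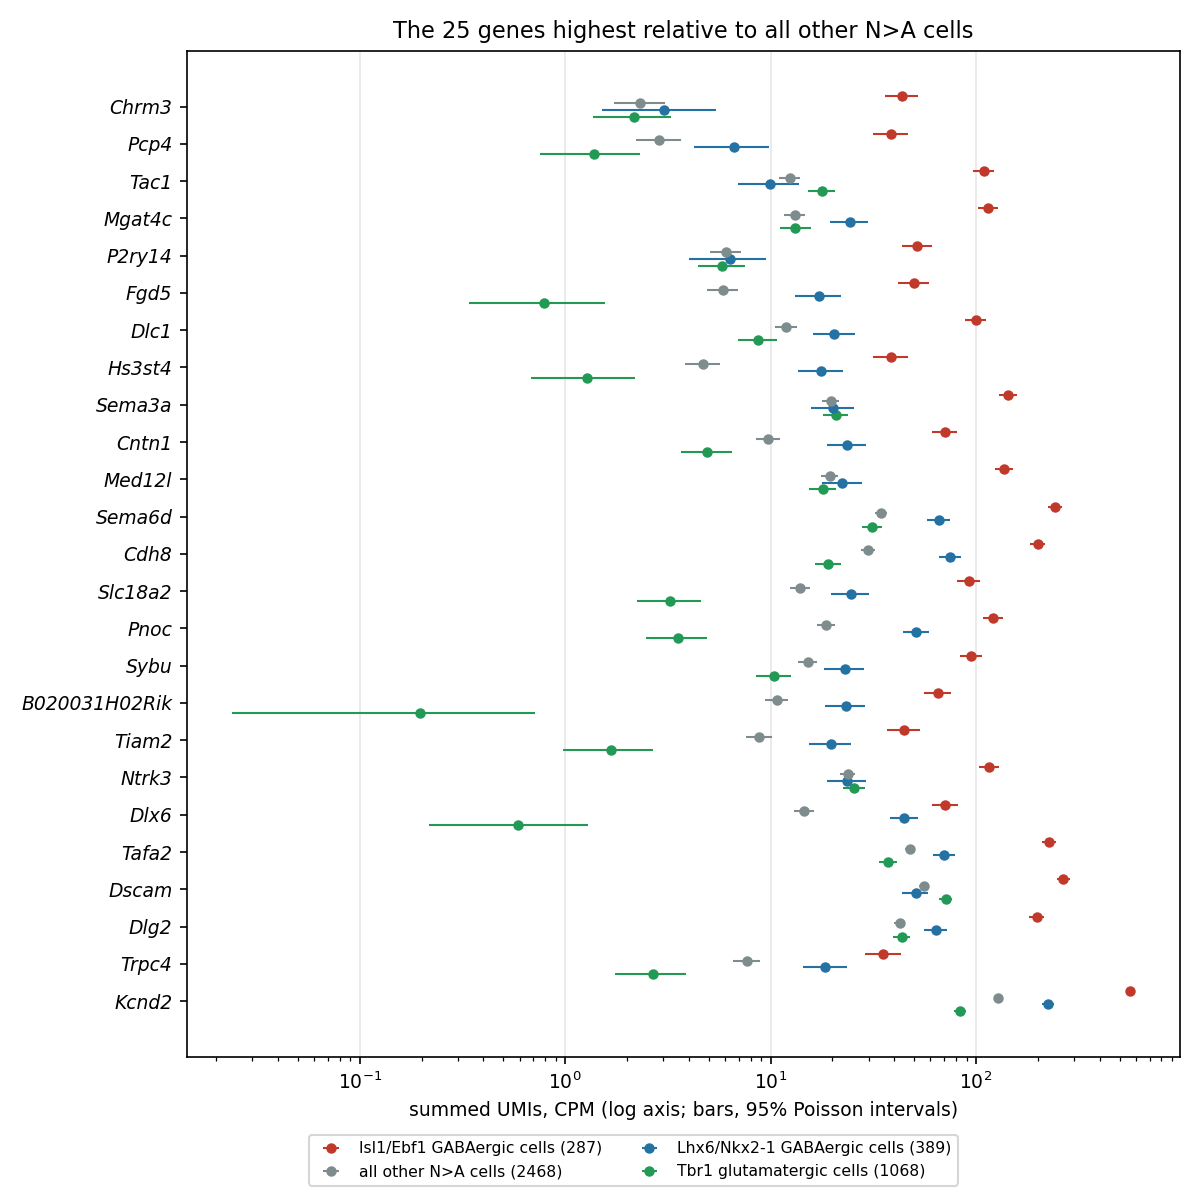
CPM of the 25 genes with the highest ratio to all other N>A cells, on a logarithmic axis, in the 287 cells (red), all other N>A cells (grey) and 2 groups within the latter, *Lhx6*/*Nkx2-1* GABAergic (blue) and *Tbr1* glutamatergic cells (green), with 95% Poisson intervals. The red points lie to the right of the other groups for all 25 genes, and *Pnoc*, *Slc18a2*, *Fgd5* and *Dlx6* are also higher in the other GABAergic cells than in the glutamatergic cells.

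The transcription factors of the LGE and striatum were given by a list of 18 genes, of which 15 were compared. In the 287 cells 6 were at least 2-fold higher, none was at least 2-fold lower and the median ratio was 1.56. *Meis2*, a TALE homeobox gene of the LGE, was at 2370 against 646 CPM (ratio 3.67, interval 3.56 to 3.78) and in 93.7% of the cells. *Zfp503*, a zinc finger gene of the developing striatum also called *Nolz1*, was at 119 against 32.1 CPM (ratio 3.70, interval 3.24 to 4.23). *Six3* was at 247 against 75.8 CPM, *Zfhx3* at 1153 against 326 CPM and *Sp9* at 207 against 96.1. *Bcl11b*, which is required for maturation of striatal projection neurons, was at 269 against 182 CPM, a ratio of 1.48, and *Foxp1*, *Foxp2*, *Foxp4*, *Zfp521* and *Mef2c* had ratios below 1. *Ebf2* and *Ebf3*, the relatives of *Ebf1* found in Cajal-Retzius cells, were at 22.3 against 302 CPM and 7.31 against 144 CPM, with ratios of 0.0737 and 0.0509.

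In the GABAergic programme, which the rule favoured through *Gad1* and *Gad2*, 10 of 11 genes compared were at least 2-fold higher, with a median ratio of 3.01. *Dlx5* stood at 328 against 94.1 CPM and was found in 90.9% of the cells, *Dlx1* at 240 against 111 CPM and *Dlx2* at 291 against 123 CPM. *Slc32a1*, which encodes the vesicular GABA transporter, stood at 101 against 24.5 CPM.

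Genes of glutamatergic and Cajal-Retzius neurons stood at the other end. Of 10 pallial glutamatergic genes compared 8 were at least 2-fold lower, with a median ratio of 0.137, and of 8 Cajal-Retzius genes 6 were, with a median ratio of 0.0567. *Slc17a6*, a vesicular glutamate transporter gene, had 7 UMIs in the 287 cells (2.56 CPM) against 156 CPM, and *Calb2* had 3 UMIs (1.10 CPM) against 89.9 CPM. *Trp73*, a defining Cajal-Retzius gene, had none. The 15 lowest genes were led by *Gmnc*, *Samd3*, *Rasgrp1*, *Lhx1* and *Calb2*, each with 1 to 3 UMIs in the 287 cells. Endothelial markers summed to 1.83 CPM against 1.68 CPM and macrophage markers to 1.46 CPM against 10.4 CPM, and no gene of these 2 lists reached the limit of comparison.

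Mesenchyme markers were found in few cells, and 1 of the 10 reached the limit of comparison. The 10 genes summed to 128 CPM in the 287 cells and 58.0 CPM in other N>A cells, with *Col3a1* the most abundant at 44.2 against 17.9 CPM. Of the mesenchyme UMIs, 94.3% lay in 8 cells, of which 6 were marked as doublets, and these 8 cells held 9 of the 2797 *Ebf1* UMIs. Such cells, with 5 or more mesenchyme UMIs, made up 2.79% of the 287 cells and 1.74% of other N>A cells. Without cells holding 5 or more mesenchyme UMIs, in both groups, 152 genes were at least 2-fold higher and 159 at least 2-fold lower, of which 144 and 141 were among those above. This alternative was chosen after the data were seen. Erythroid genes summed to 8238 CPM against 17128 CPM, with 66 of the other N>A cells and 3 of the 287 holding at least 20% globin UMIs. With the other N>A cells limited to the 2343 with at least 10 neuronal UMIs, also chosen after the data were seen, 144 genes were higher and 155 lower, of which 144 and 143 were among those above.

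**Figure D3:**
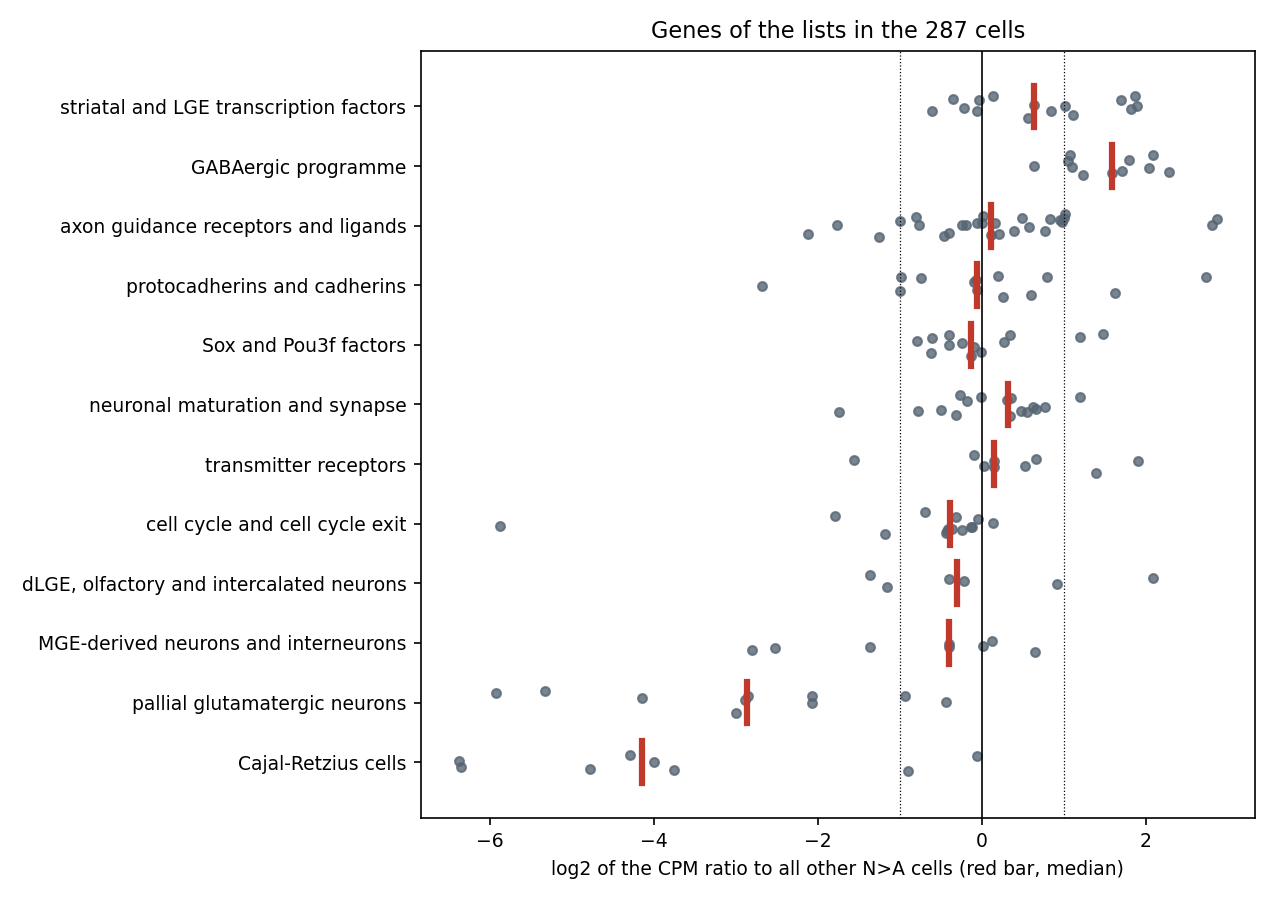
Ratio of CPM in the 287 cells to that in all other N>A cells, on a log2 scale, for each compared gene of 12 lists (points, spread vertically at random) with the list's median (red bar) and dotted lines at 2-fold. The GABAergic programme and the LGE list lie mostly to the right of 0, and the glutamatergic and Cajal-Retzius lists lie far to the left.

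Other lists were of guidance, adhesion and receptor genes. Of 27 axon guidance genes compared, 4 were at least 2-fold higher (*Sema3a*, *Sema6d*, *Plxna2* and *Slit3*) and 3 at least 2-fold lower (*Epha3*, *Cntn2* and *Plxna4*), with a median ratio of 1.08. For *Slit3*, 46.3% of the UMIs came from 1 cell. *Robo1*, a Slit receptor gene, was at 1234 against 635 CPM, a ratio of 1.94, and *Dcc*, a netrin receptor gene, at 2762 against 5493 CPM. Among 13 cadherins and protocadherins, *Cdh8* and *Pcdh10* were higher (*Pcdh10* at 64.0 against 20.7 CPM) and *Pcdh17* was lower, at 19.0 against 122 CPM. *Pcdh8*, the protocadherin of the study's question, was below the limit of comparison at 23.0 CPM (interval 17.7 to 29.5) against 8.51 CPM and in 16.7% against 6.24% of cells. Of 9 transmitter receptor genes, the AMPA and kainate receptor genes *Gria1* (80.8 against 21.5 CPM) and *Grik3* (167 against 63.3 CPM) were higher and *Grik2* (277 against 819 CPM) was lower. Of 13 *Sox* and *Pou3f* genes, *Pou3f1* (369 against 132 CPM) and *Pou3f4* (161 against 70.1 CPM) were higher.

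Of 14 cell cycle genes, none was at least 2-fold higher, and *Ccnd1*, *Btg2* and the cell cycle inhibitor gene *Cdkn1a* were lower, the last with 3 UMIs in the 287 cells against 64.7 CPM. *Top2a* was at 285 against 293 CPM. In the retinoid pathway, *Rara*, a retinoic acid receptor gene, was the 1 of 5 genes at least 2-fold higher. *Aldh1a3*, which makes retinoic acid and is known from the LGE, did not reach the limit of comparison. It had 57 UMIs in the 287 cells (20.8 CPM, interval 15.8 to 27.0) and 10 in the 2468 other N>A cells (0.455 CPM), and was found in 13.2% and 0.405% of cells.

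A second group of GABAergic neurons, marked by genes of the MGE, was made up of 389 N>A cells with at least 2 *Gad1* and *Gad2* UMIs, no *Tbr1* and at least 1 UMI of *Lhx6* or *Nkx2-1*, the homeobox genes of the MGE (median depth 7106 UMIs). They are among the 2468 cells above. Fewer genes separated them from the 287 cells, with 105 of 7038 at least 2-fold higher (1.49%) and 69 at least 2-fold lower (0.98%). Apart from *Chrm3* and *Tac1*, the highest ratios belonged to *Zfp503*, at 119 against 13.5 CPM (ratio 8.78, interval 6.48 to 12.1), *P2ry14*, *Sema3a* and *Meis2*, at 2370 against 357 CPM (ratio 6.64, interval 6.26 to 7.06). *Sp9* was lower in the 287 cells than in these cells, at 207 against 304 CPM, and *Bcl11b* too, at 269 against 344 CPM, neither past 2-fold. Of 11 genes of the GABAergic programme only *Sp8* was past 2-fold, at 94.7 against 26.8 CPM, and the median ratio was 1.12.

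Of 10 MGE genes compared, 5 were at least 2-fold lower in the 287 cells than in the *Lhx6*/*Nkx2-1* cells and 5 were within 2-fold, and both cholinergic genes compared were lower. The rule chose the first cells for lacking *Lhx6* and *Nkx2-1* and the second for holding them, so that this is a description. *Lhx8*, a LIM homeobox gene of cholinergic neurons, was at 15.7 against 559 CPM, *Gbx1* at 1.83 against 60.8 CPM and the secreted signal gene *Shh* at 2.56 against 116 CPM. *Erbb4*, a neuregulin receptor gene of interneurons, was at 301 against 1230 CPM. *Chat* and *Slc18a3*, which define cholinergic neurons, had no UMI in the 287 cells. *Sst*, the somatostatin gene, had 32 UMIs in 6 of the 287 cells, against 1 UMI in the 2468 other N>A cells.

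Glutamatergic cells, the 1068 N>A cells with a *Tbr1* UMI and fewer than 2 of *Gad1* and *Gad2* (median depth 7466 UMIs), were farther away. Against them 185 of 7023 genes were at least 2-fold higher (2.63%) and 215 at least 2-fold lower (3.06%). *Meis2* stood at 715 CPM and *Zfp503* at 42.4 CPM in these cells, above their levels in the *Lhx6*/*Nkx2-1* cells, and *Tac1* at 17.8 CPM, with a UMI in 11.4% of the cells.

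Just outside the limit of the rule were 58 cells with 1 UMI of *Isl1* and *Ebf1* and 111 with none, which met every other condition. *Meis2* was at 2325 and 2095 CPM in them, against 2164 CPM in the 51 cells with 2 UMIs, 1778 CPM in the 50 with 3 and 2557 CPM in the 186 with 4 or more. *Sp9* was at 338 and 352 CPM outside the limit and at 350 CPM, 224 and 175 CPM inside it. *Zfp503* was at 55.3 and 37.3 CPM outside and at 50.4, 69.0 and 145 CPM inside. Cells with 1 and with 2 UMIs thus stood close in these 3 factors, though not in *Six3*, at 327 CPM (interval 275 to 385) and 212 CPM (interval 168 to 264), and those with 4 or more were higher in *Zfp503* and *Meis2* and lower in *Sp9* than both. *Tac1* had no UMI in the cells with 1 UMI and 1 in those with none, and reached 18.6, 53.9 and 140 CPM with 2, 3 and at least 4 UMIs. The 18.6 CPM came from 1 cell with 7 *Tac1* UMIs, and the 53.9 CPM from 2 cells with 22 and 3. The median of log2((N + 1)/(A + 1)) was 3.75 in the last group and 2.70 in the cells with 2 UMIs.

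Among the 287 cells, those with an *Ebf1* UMI lay mostly at 1 end of the neuronal order. The cells were ordered by log2((N + 1)/(A + 1)), a measure of how far neuronal exceeded progenitor genes, and divided into terciles of 96, 96 and 95 cells. These are ranges and not types, and 30 and 33 cells lay within 0.25 of the 2 boundaries. *Ebf1* was found in 16 cells of the lower tercile (16.7%, interval 9.84 to 25.6%), 17 of the middle (17.7%, interval 10.7 to 26.8%) and 62 of the upper (65.3%, interval 54.8 to 74.7%). Of the 59 cells with 10 or more *Ebf1* UMIs, 48 were in the upper tercile. *Isl1* stood at 379, 559 and 735 CPM. The lower tercile also held 17 of the 20 cells marked as doublets, and all 8 cells with 5 or more mesenchyme UMIs. Of its 16 cells with *Ebf1*, 8 were marked as doublets, and their median depth was 18028.5 UMIs. The upper tercile held no cell so marked.

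Many genes differed along this order, which rests on the genes of the rule. Between the upper and the lower tercile 622 of 7003 genes were at least 2-fold higher (8.88%) and 809 at least 2-fold lower (11.6%). Of 16 maturation genes 12 were higher and 1 lower, among them *Ina*, an intermediate filament gene (1340 against 258 CPM), and *Syt1*, a synaptic vesicle gene (1058 against 275 CPM). Of 13 cell cycle genes 11 were lower, and so were all 4 Notch pathway genes compared. Markers of other cells and of handling also differed, with 4 of 5 pallial glutamatergic genes, 4 of 5 septal genes and 3 of 3 mesenchyme genes lower and 3 of 6 dissociation-response genes higher (summed 785 against 364 CPM). Their part in the other differences was not tested. *Meis2* stood at 1637, 2432 and 3300 CPM and *Foxp1* at 304, 170 and 95.2 CPM.

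The upper tercile allowed cells with and without *Ebf1* to be set side by side within 1 range of this order, with medians of 5.17 and 4.57. There were 62 cells with *Ebf1* (median depth 8857 UMIs) and 33 without (6889 UMIs). At a mean of 20 CPM, 390 of 6605 genes were at least 2-fold higher in the former (5.9%) and 348 at least 2-fold lower (5.27%), where the 251869 UMIs of the 33 cells put 20 CPM at about 5 UMIs. *Meis2* was alike in both, at 3300 and 3299 CPM, as was *Dlx5* at 332 and 334 CPM. Of 16 maturation genes 15 were within 2-fold, with a median ratio of 1.07. Of the cell cycle genes, 4 of 9 compared were at least 2-fold lower with *Ebf1*, with a median ratio of 0.54, but 1 cell without *Ebf1* held 20 of the 28 *Top2a* UMIs there, and 1 cell 8 of 12 for *Cdk1* and for *Ccnb1*. The 7 progenitor genes of the rule summed to 157 against 222 CPM.

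Several lists had members on both sides between the 2 parts of the upper tercile. Of 26 axon guidance genes compared 5 were at least 2-fold higher with *Ebf1* and 4 at least 2-fold lower (median ratio 1.01), of 16 LGE and striatal factors 4 and 5 (median 1.03), and of 13 cadherins and protocadherins 5 and 2 (median 1.39). Single members differed in both directions. *Zfp503* was at 277 against 115 CPM and in 50 of 62 against 13 of 33 cells. *Mgat4c*, a glycosyltransferase-like gene, was at 464 CPM in 37 of 62 cells and had 2 UMIs, in 1 of 33 cells, without *Ebf1* (ratio 58.4, interval 16.0 to 485). *Tac1* was at 370 CPM in 26 of 62 cells, and its 22 UMIs without *Ebf1* all came from 1 cell. *Chrm3* was found in 18 of 62 against 1 of 33 cells. *Mgat4c*, *Tac1* and *Chrm3* were thus each found in 1 cell of the upper tercile without *Ebf1*, while *Zfp503* was found in 39.4% of those cells. *Pcdh10* was at 185 against 23.8 CPM, *Robo2*, a Slit receptor gene, at 1170 against 246 CPM, *Sema6d* at 734 against 155 CPM, *Cdh8* at 580 against 179 CPM, and *Bcl11b* at 405 against 191 CPM. In the same lists, the semaphorin receptor genes *Nrp1* and *Nrp2* had ratios of 0.46 and 0.32 and the protocadherin gene *Pcdh9* was at 57.1 against 385 CPM.

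Other genes were lower in the cells with *Ebf1*. Of 5 genes compared in the list of dorsal LGE, olfactory and intercalated neurons, all 5 were at least 2-fold lower in the cells with *Ebf1*. *Erbb4* was at 675 CPM in 18 of 33 cells without *Ebf1* and had 5 UMIs in 62 cells with it (8.65 CPM), with 23.5% of the UMIs without *Ebf1* in 1 cell. *Foxp2* was at 318 against 43.3 CPM, *Pax6* at 131 against 29.4 CPM, *Sp8* at 95.3 against 27.7 CPM and *Tshz1* at 39.7 against 3.46 CPM, the last from 10 and 2 UMIs. As given above, *Erbb4* is also a gene of interneurons and was higher in the *Lhx6*/*Nkx2-1* cells. In the list of MGE-derived neurons and interneurons, 3 of 7 genes compared were at least 2-fold higher with *Ebf1* and 1 at least 2-fold lower. That list summed to 348 CPM with *Ebf1* and 1020 CPM without. From the list of LGE and striatal factors, *Six3* was at 504 against 125 CPM and *Sp9* at 151 against 12.1 CPM, with a UMI in 13 of 33 against 7 of 62 cells. The *Dlx* genes were not alike. *Dlx1* was at 286 without against 116 CPM with *Ebf1*, and *Dlx6os1*, the antisense transcript of the *Dlx5*/*Dlx6* locus, at 560 against 204 CPM. *Dlx6*, in contrast, was at 75.4 against 140 CPM, with a UMI in 16 of 33 and 42 of 62 cells.

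**Figure D4:**
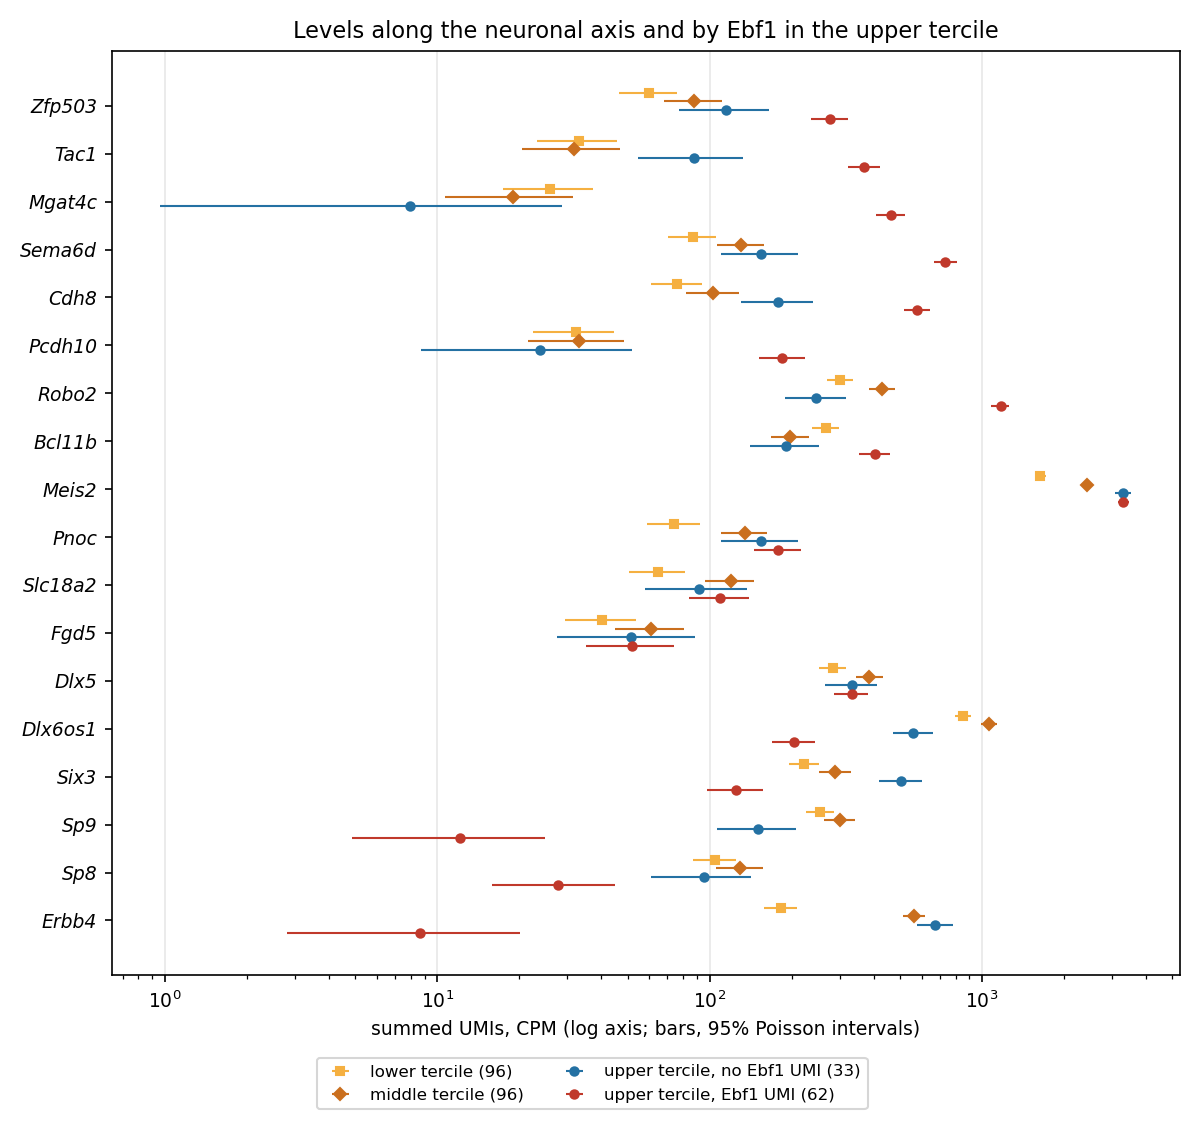
CPM of 18 genes, on a logarithmic axis with 95% Poisson intervals, in the lower and middle tercile of log2((N + 1)/(A + 1)) and in the cells of the upper tercile without and with an *Ebf1* UMI (numbers of cells in the key). From *Zfp503* to *Bcl11b* the cells with *Ebf1* lie to the right of the other 3 groups, *Meis2*, *Pnoc*, *Slc18a2*, *Fgd5* and *Dlx5* are alike in both parts of the upper tercile, and from *Dlx6os1* to *Erbb4* the cells with *Ebf1* lie to the left.

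The 25 leading genes were also looked at when all 287 cells were divided by *Ebf1*. Between the 95 cells with it (median depth 9155 UMIs) and the 192 without (7200 UMIs), 304 of 6982 genes were at least 2-fold higher (4.35%) and 168 at least 2-fold lower (2.41%). Without cells marked as doublets, an alternative chosen after the data were seen, the lower genes numbered 261. When each cell was thinned to 2500 UMIs, 26.5% in place of 33.1% held an *Ebf1* UMI. Of the leading genes, 15 were at least 2-fold higher with *Ebf1*, among them *Chrm3*, *Pcp4*, *Tac1*, *Mgat4c*, *Sema3a*, *Sema6d*, *Cdh8* and *Dscam*. *Mgat4c* stood at 286 against 2.42 CPM and *Chrm3* at 107 against 1.82 CPM. Another 8 were within 2-fold, namely *Dlx6*, *Fgd5*, *Tafa2*, *Pnoc*, *Sybu*, *Cntn1*, *Tiam2* and *Slc18a2*, and *Trpc4* and *B020031H02Rik* were at least 2-fold lower. This division cannot be told apart from the neuronal order, whose median was 4.54 with and 2.68 without *Ebf1*. By the same division, 3 of 6 dissociation-response genes were at least 2-fold higher with *Ebf1* (summed 694 against 396 CPM). Of 13 cell cycle genes 5 were at least 2-fold lower, as were 2 of 4 Notch pathway genes. The part of these lists in the other differences was not tested. Within the upper tercile 14 of the 25 were at least 2-fold higher with *Ebf1*, 10 within 2-fold and *Tiam2* lower. There *Pcp4* (95.2 against 59.6 CPM) and *Kcnd2* were within 2-fold and *Tafa2* (376 against 111 CPM) was higher. For *Hs3st4*, among the 14, 1 cell held 25 of the 51 UMIs with *Ebf1* and 1 cell 5 of the 6 without. Over all 287 cells, *Pnoc* stood at 136 and 111 CPM and *Slc18a2* at 89.4 and 93.9 CPM.

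*Mgat4c* (chromosome 10) had, of the 25 leading genes, the highest ratio between cells with and without *Ebf1* in the upper tercile, and the window before 1 of its annotated starts is shown because it holds the homeodomain core motif TAATTA, which reads the same on both strands. The window is that of RefSeq on GRCm38.p6, chr10:102158610-102158695 on the plus strand, and holds the motif at 2 places that overlap by 2 bases, beginning 208 and 204 bases before the start, both in capitals.
Mgat4c: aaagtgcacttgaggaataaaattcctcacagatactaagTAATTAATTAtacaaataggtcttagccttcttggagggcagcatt
Of 32851 RefSeq promoters, 1590 (4.84%) held the motif within 250 bases before the start, as did 164 of the 5610 compared genes with a promoter there (2.92%), and of the 19 leading genes with a promoter in that table, 2 did, *Mgat4c* and *Tac1*. Such a match is a description and says nothing of binding.

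The same rule was applied to the septal explants, which it had not been made for. It found 133 of 1848 N>A cells (7.20%, interval 6.06 to 8.47%), with a median depth of 11254 UMIs. The kits and versions of Cell Ranger differed, so that levels were not compared between the libraries and each was set against its own other N>A cells. In the explants, 94 of 5782 genes were at least 2-fold higher in these cells (1.63%) and 165 at least 2-fold lower (2.85%). *Ebf1* was found in 8 of the 133 cells (6.02%, interval 2.63 to 11.51%), with at most 2 UMIs. The septal cells thus met the rule through *Isl1*.

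The 8 leading genes within 2-fold between all cells with and without *Ebf1* had a ratio of at least 2 in the septal explants too. By the division within the upper tercile this held for 8 of the 9 such genes in the septal files, *Pcp4* being the exception. Of the first 8, 4 were above the limit of comparison, namely *Pnoc* (280 against 21.6 CPM, ratio 12.9), *Slc18a2* (47.4 against 3.85 CPM, ratio 12.3), *Sybu* and *Dlx6*. *Meis2* (479 against 81.8 CPM, ratio 5.86), *Sp9* (483 against 35.1 CPM, ratio 13.8) and *Dlx5* (731 against 55.3 CPM, ratio 13.2) were also higher in the septal cells. Of the 15 leading genes that were higher with *Ebf1*, 8 had no UMI in the 133 septal cells, where 3 counts would make 1.82 CPM, and 2 had a ratio of at least 2, *Sema3a* from 9 UMIs and *Kcnd2* from 4 (interval 0.531 to 6.13). For most of the 8 this says little, since *Chrm3*, *P2ry14*, *Med12l*, *Cdh8* and *Mgat4c* were at or below 1.15 CPM in the other N>A cells of the explants too and the upper bounds of their ratios all lay above 2, up to 67.3 for *Chrm3*. The other 3 had ratios bounded below 2, at most 0.145 for *Tac1* (15.6 CPM in those other cells), 0.716 for *Dlg2* (3.22 CPM) and 1.85 for *Dlc1* (1.30 CPM). *Zfp503* had 6 UMIs (3.65 CPM, against 16.0 CPM), and *Pcp4* was lower in the septal cells, at 4.26 against 83.9 CPM. Of the 15 lowest genes of the vesicle, 12 were compared in the explants, and all 12 were at least 2-fold lower there. In the explants too the rule chose cells with *Gad1* and *Gad2* and without *Tbr1*. The other N>A cells there held *Tbr1* at 449 CPM and *Gad2* at 14.5 CPM. The rule thus favoured GABAergic over glutamatergic genes in both libraries, and genes higher or lower in both are a description.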

How the data were processed

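Single-cell libraries were made by the authors with 10x Genomics kits from dissociated tissue, with about 20000 cells loaded for the vesicle and 10000 for the septum. The deposited counts are UMIs per gene and barcode, not normalised, made with Cell Ranger 7.1.0 (vesicle, kit v3.1) and 2.1.1 (septum, kit v2) on mm10, per the labels. Default settings were used for the septum, and whether intronic reads were counted in the vesicle is not given in the sources used here. The vesicle held 194821794 UMIs (median 8503 per barcode) and the septum 83103280 (median 12722).

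The members and the gene lists were chosen with earlier results of these data known. UMIs were summed per group of cells and scaled to CPM. Genes with a mean CPM of at least 20 over both groups were compared, and a ratio of at least 2 or at most 0.5 was taken as higher or lower. With 1 library per tissue, no test was run. Intervals are exact (Poisson, Clopper-Pearson, conditional binomial) at 95%, and PCR and capture error are not in them. Depth limits genes with few UMIs. The rule has no doublet step, so that doublets were kept. Scrublet in scanpy 1.11.5, at an expected 0.8% per 1000 barcodes, marked 728 of 11498 cells (6.33%), and these were left out as an alternative. Named genes were the rule's genes, those of 27 lists, the 25 highest and 15 lowest against other N>A cells and the 10 highest and 10 lowest against *Lhx6*/*Nkx2-1* cells. Gene positions are from GENCODE M21. The ratios and their intervals were tried on counts simulated with known folds and counting error only. That simulation leaves out the uneven spread of UMIs over cells. Sums and intervals were computed with scipy 1.17.1 and pandas 2.3.3 in Python 3.11.15, and plots were drawn with matplotlib 3.10.9. Alternatives were other limits on UMIs, mitochondrial share, *Isl1* and *Ebf1*, and CPM, thinning of cells to 2500 UMIs and equal weights for cells. Some genes are not reported here.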

Additional observations from a re-analysis of the deposited data

Results flagged for a closer look

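The gene list of the vesicle holds a LacZ sequence that no comparison used. It had 11 UMIs in 9 barcodes of the wild-type library, above the 3 counts that a count of 0 allows, and none in the 287 cells.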

How the results depend on the processing

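Each condition is 1 library, so that no setting gives replicate error. No paired analysis was possible because each group has 1 sample. The cells made up 10.4% of N>A cells, and 8.57% (236 cells) with at least 3 UMIs of *Isl1* and *Ebf1*. With every cell thinned to 2500 UMIs before the rule, the share was 3.71% (102 cells), with 321 genes at least 2-fold higher and 374 lower, in place of 154 and 147, of which 127 and 117 were among those reported. With a floor of 5 CPM, 300 genes were higher and 334 lower, and with 50 CPM 89 and 73. Without cells marked as doublets, the genes lower with *Ebf1* numbered 261 in place of 168. The share of cells with an *Ebf1* UMI was 26.5% when each cell was thinned to 2500 UMIs. All other counts stayed within 1.5 times those reported. For the 53 genes ranked by ratio, none of 477 values in 9 settings changed direction, and 83 lay outside the interval reported. These genes were picked for extreme ratios in the same counts, so that a change of direction was unlikely in any setting. Depth limits *Drd2*, *Sst* and other genes with few UMIs.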
